A study of Mus musculus with 16 samples.

Results

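Amino acids filtered at the glomerulus are taken back by the proximal tubule, and 10 genes of that machinery were followed in mouse kidney RNA, out of 30277 genes measured: Slc7a13, Slc7a12, Slc6a18, Slc6a19, Slc3a1, Slc7a9, Slc3a2, Slc7a7, Slc7a8 and Slc1a1. They were taken by gene symbol from both expression tables, 1 for males and 1 for females, and all 10 were present in each. The tables hold 16 kidney libraries of polyadenylated RNA from the inbred mouse strain 129S1/SvlmJ, on which the Klotho mutation (Kl) is congenic; no treatment is labelled. There were 5 libraries from male Kl/Kl mice, 3 from male +/Kl mice, 4 from female Kl/Kl mice and 4 from female +/+ mice, at 44 to 54 days of age. Kl/Kl mice are labelled as having renal disease and both kinds of control as having healthy kidney function. The male controls carry 1 copy of the mutation and the female controls none, so sex, table and control genotype cannot be told apart between the tables. Whole kidney was sequenced, and the labels do not say that libraries of a group came from separate animals, so p-values measure only the spread between these libraries.

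Transport across the proximal tubule cell needs carriers on both faces of the cell. On the urine side, SLC6 carriers take up neutral amino acids with sodium, and the heavy subunit rBAT, made from Slc3a1, holds light subunits such as b(0,+)AT, made from Slc7a9, in the membrane to take up cystine and basic amino acids. On the blood side, the heavy subunit 4F2hc, made from Slc3a2, does the same for the light subunits made from Slc7a7 and Slc7a8. In mice, Slc7a13 is known as a transporter of the straight part of the tubule that is higher in male kidneys, and Slc7a12 as one that is higher in female kidneys. Klotho, encoded by Kl, is a membrane protein of kidney tubules that serves as co-receptor for the phosphate-lowering hormone FGF23.

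The depth estimated from the values ranged from 21.7 to 31.9 M reads per library, and levels are given as TPM, reads scaled by the gene's span and by the library's total. Kl itself was at 1.10% of its control mean in male Kl/Kl kidneys and at 1.53% in female Kl/Kl kidneys, with no overlap between groups (exact permutation test, two-sided, p = 0.0357 for males and p = 0.0286 for females, the smallest that these designs allow). 2 libraries stood apart from the rest. Female Kl/Kl replicate 3 correlated with the other libraries at a median Spearman rho of 0.744, male control replicate 3 at 0.912 and the other 14 at 0.923 to 0.946, across genes. In female Kl/Kl replicate 3 the summed level of 7 heart muscle genes, among them Nppa, was 1864 TPM, against at most 1.82 TPM in the other 15 libraries, the 6 airway genes summed to 1067 TPM, and the 17 proximal tubule genes summed to 94.4 TPM, against 1459 to 2488 TPM in the other female Kl/Kl libraries. Of those 94.4 TPM, Pck1 made up 76.0 TPM. In male control replicate 3 each proximal tubule gene was set against its mean in male control replicates 1 and 2, and the median of these ratios was 0.46. The changes of the 10 transporters are therefore given with and without these libraries.

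The start region of Slc3a1 is shown because it holds a motif of a factor known from this tissue, HNF4. It is the 250 bases before the RefSeq start on the GRCm38.p6 build, which is not the build of the expression tables, 5′ to 3′ on the gene's strand. At chr17:85028097-85028346 on the plus strand, capitals mark CAAAGTCCA, a binding motif of the tubule and liver factor HNF4, at position -39.
Slc3a1: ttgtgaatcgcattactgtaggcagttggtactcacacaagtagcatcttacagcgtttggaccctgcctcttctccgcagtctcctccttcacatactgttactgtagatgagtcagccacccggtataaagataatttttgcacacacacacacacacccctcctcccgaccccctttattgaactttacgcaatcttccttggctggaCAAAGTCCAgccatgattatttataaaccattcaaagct
Promoter entries, which run from 250 bases before to 50 after a start, were matched for 7 of the 10 genes; Slc6a18, Slc7a12 and Slc7a13 were not matched. Motifs, not all of which are reported here, were searched on both strands, and only in the 250 bases before the start. There CAAAGTCCA was found in 0.384% of 32817 mouse promoter entries and in that of Slc3a1 alone among the 7 genes. TATAAA was found in 12.4% of entries and in that of Slc3a1, at positions -124, -20 and -18, which do not overlap CAAAGTCCA. GTTAAT, part of the HNF1 motif, was in 6.44% and in the entry of Slc7a7; the whole HNF1 motif was in 0.00914% and in none of the 7, and the STAT5 motif TTCNNNGAA was in 7.01% and in none of the 7.

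Among the 10 transporters, Slc7a13 was the gene that fell in male Kl/Kl kidneys, to 8.09% of the control mean, and no member rose past the test in males or changed in females. Slc7a13 encodes AGT1, a carrier of aspartate, glutamate and cystine that pairs with rBAT, and lies at chr4:19818725-19842219 on the plus strand (mm39). It had 2.04, 3.49, 3.46, 1.39 and 2.70 TPM in male Kl/Kl kidneys, against 42.1, 38.4 and 16.5 TPM in male +/Kl kidneys. The groups did not overlap, and the lowest control value was that of replicate 3. The log2 change was -3.14 ± 0.32 (SE; limma with Benjamini-Hochberg adjustment over 8439 genes, adjusted p = 0.000187) on the log2(TPM + 1) scale, and -3.55 ± 0.25 without control replicate 3 (adjusted p = 0.000141). Of all genes tested in males, 2.18% were called lower and 3.74% higher, and without that library 7.36% and 3.16%. In these whole-kidney samples fewer cells of a type and less RNA per cell cannot be told apart.

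Slc7a13 was low in female +/+ kidneys, and higher than that in female Kl/Kl replicates 1 and 2. It had 4.89, 4.31, 0.0217 and 0.802 TPM in female Kl/Kl kidneys, against 0.587, 0.988, 0.584 and 0.856 TPM in female +/+ kidneys. Kl/Kl replicates 1 and 2 lay above every control, replicate 4 lay within the control range, and replicate 3, the library that stood apart, lay below all. With a female control mean of 0.754 TPM, Slc7a13 met the filter of a mean of 1 TPM only through the Kl/Kl libraries. The log2 change was 0.66 ± 0.55 (SE; limma adjusted p = 0.745) and 1.14 ± 0.37 without replicate 3 (unadjusted p = 0.0148, adjusted p = 0.172), so it did not pass the test. Between the tables, control kidneys held 16.5 to 42.1 TPM in males and 0.584 to 0.988 TPM in females. The columns of the male table sum to 1.08 times those of the female table, and the control values of the tables were not tested against each other.

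The male and female changes of Slc7a13 differed by -3.80 ± 0.67 on the log2 scale (SE; limma, male change minus female change, 16 libraries, adjusted p = 0.0247). Across all genes 0.211% of 8535 were called, all with the male change lower. Without both libraries that stood apart the difference was -4.69 ± 0.50 (adjusted p = 0.000200), where 3.89% of genes were called. Leaving out a single library ended the call for 10 of the 16 libraries, with the highest adjusted p, 0.161, without male control replicate 2 and 0.154 without male control replicate 1. The call held without each of the other 6.

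Slc7a12 encodes a carrier of small neutral amino acids and lies at chr3:14545757-14570891 on the plus strand. It had 0.935, 3.85, 2.42, 0.425 and 2.61 TPM in male Kl/Kl kidneys, against 0.361, 0.229 and 0.0311 TPM in male +/Kl kidneys. Every male Kl/Kl library lay above every male control, replicate 4 by little. With a male control mean of 0.207 TPM, Slc7a12 met the filter of a mean of 1 TPM only through the Kl/Kl libraries. The log2 change was 1.21 ± 0.34 (SE; limma unadjusted p = 0.00444, adjusted p = 0.0577) and 1.10 ± 0.43 without control replicate 3 (adjusted p = 0.128), so it did not pass the test. It passed in 9 of 19 alternative fits, among them the fit without Kl/Kl replicate 4 (adjusted p = 0.0138) and those with smaller pseudocounts, where the log2 change was 2.66 to 3.37.

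In females the values of Slc7a12 lay on the other side of their controls. They were 6.14, 3.65, 0.0124 and 4.94 TPM in female Kl/Kl kidneys, against 11.9, 8.16, 8.62 and 5.83 TPM in female +/+ kidneys. 3 of the 4 Kl/Kl libraries lay below every control, and replicate 1 lay above the lowest control. The log2 change was -1.32 ± 0.60 (SE; limma adjusted p = 0.745) and -0.69 ± 0.22 without replicate 3 (adjusted p = 0.160). The difference between the sexes was 2.53 ± 0.73 (adjusted p = 0.458), and 1.79 ± 0.52 without both libraries that stood apart (adjusted p = 0.0745). Control kidneys held 0.0311 to 0.361 TPM in males and 5.83 to 11.9 TPM in females.

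**Figure D1:**
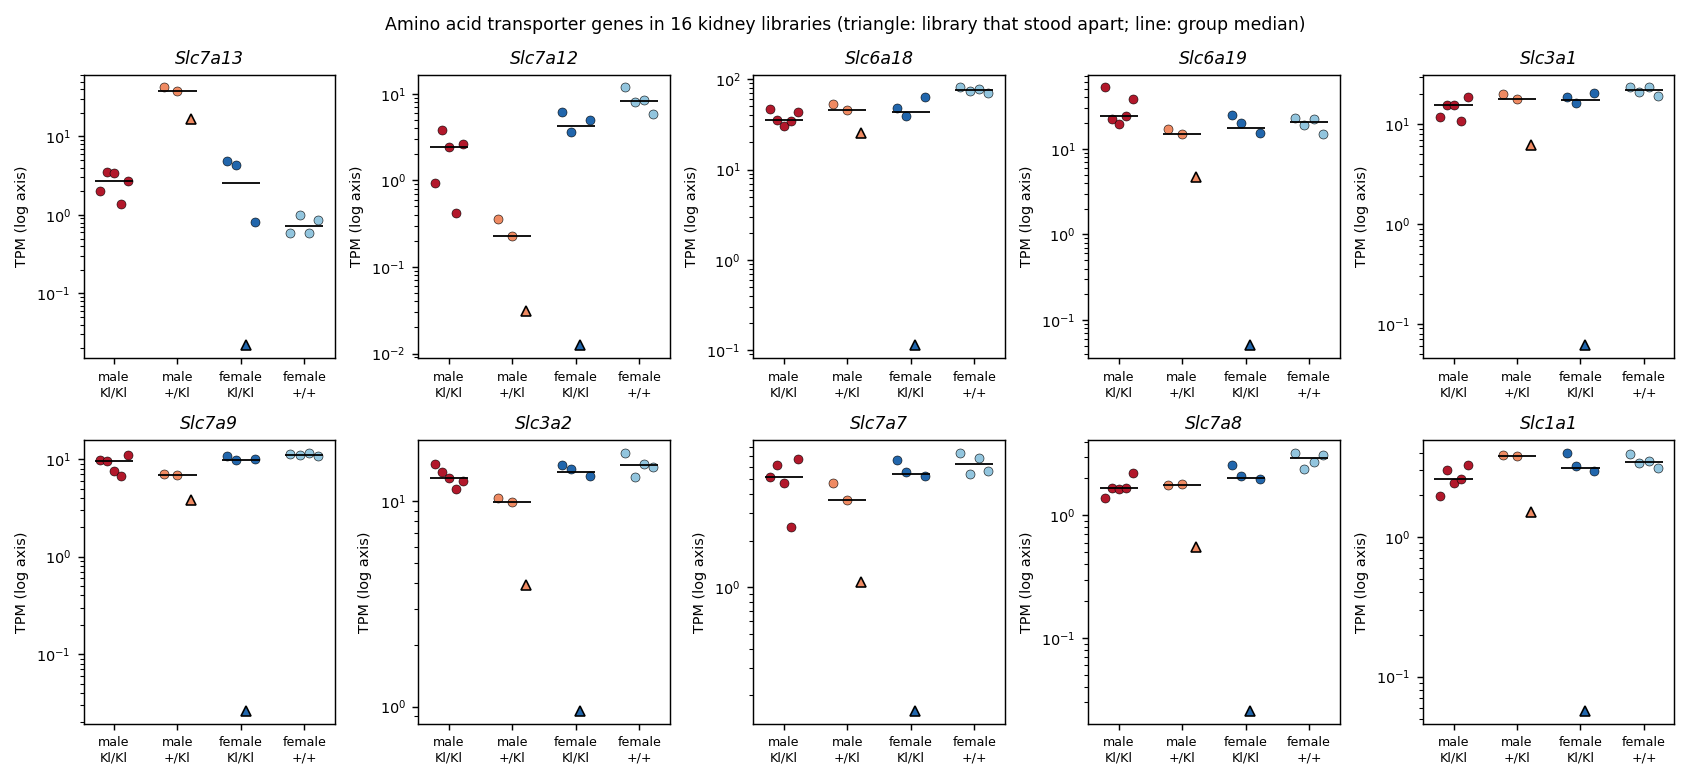
TPM of the 10 transporter genes (log axis, 1 panel per gene) in male Kl/Kl, male +/Kl, female Kl/Kl and female +/+ kidneys; each point is a library, triangles are male control replicate 3 and female Kl/Kl replicate 3, and lines are group medians over all libraries. Slc7a13 lies at 1.39 to 3.49 TPM in male Kl/Kl kidneys and at 16.5 to 42.1 TPM in male +/Kl kidneys, and the female triangle, female Kl/Kl replicate 3, is the lowest point of every panel.

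Within a library, the ratio of Slc7a12 to Slc7a13 set the groups apart. These ratios were chosen after the values were seen and have no test; since the values are scaled by each gene's span, only their change between libraries can be read. The ratio was 0.306 to 1.10 in male Kl/Kl kidneys, against 0.00188 to 0.00858 in male +/Kl kidneys. It was 0.571 to 6.16 in female Kl/Kl kidneys, against 6.82 to 20.2 in female +/+ kidneys. In both sexes the groups did not overlap, and the ranges of male and female Kl/Kl libraries overlapped. In female Kl/Kl replicate 3 the ratio rests on an estimated 11.0 and 18.1 reads.

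Slc6a18 and Slc6a19 are neighbours on chromosome 13, both on the minus strand, at chr13:73809871-73826143 and chr13:73827864-73852985. Slc6a19 encodes B(0)AT1, the main urine-side carrier of neutral amino acids, and Slc6a18 encodes B(0)AT3, a related carrier that takes up glycine and alanine in mice. Neither passed the test in a sex. Slc6a19 had 51.9, 22.4, 19.2, 24.2 and 38.1 TPM in male Kl/Kl kidneys, against 17.2, 14.9 and 4.71 TPM in male +/Kl kidneys. Every Kl/Kl library lay above every control, and control replicate 3 was the lowest. Its log2 change was 1.35 ± 0.42 (SE; limma adjusted p = 0.0736) and 0.82 ± 0.36 without control replicate 3 (adjusted p = 0.159). It passed in 4 of 20 alternative fits.

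In females Slc6a19 had 24.6, 19.97, 0.0507 and 15.3 TPM in Kl/Kl kidneys, against 23.1, 18.7, 22.4 and 14.9 TPM in +/+ kidneys. Apart from replicate 3, the groups covered the same range. Its log2 change was 0.0069 ± 0.19 without replicate 3 (SE; limma adjusted p = 0.988) and -1.07 ± 0.97 with it (adjusted p = 0.745).

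Slc6a18 had 46.3, 35.1, 30.6, 34.3 and 43.6 TPM in male Kl/Kl kidneys, against 52.8, 45.6 and 25.4 TPM in male +/Kl kidneys. The groups overlapped through Kl/Kl replicate 1 and control replicate 3. That is a log2 change of -0.071 ± 0.26 (SE; limma adjusted p = 0.878) and -0.38 ± 0.18 without control replicate 3 (adjusted p = 0.195). In females it had 47.7, 39.5, 0.113 and 62.8 TPM in Kl/Kl kidneys, against 81.0, 73.7, 78.4 and 70.5 TPM in +/+ kidneys. Every female Kl/Kl library lay below every control. Its log2 change was -1.99 ± 1.22 (adjusted p = 0.745) and -0.62 ± 0.14 without replicate 3 (unadjusted p = 0.00254, adjusted p = 0.0942), so Slc6a18 did not pass the test.

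The ratio of Slc6a18 to Slc6a19 was 0.892 to 1.59 in male Kl/Kl kidneys, against 3.05 to 5.39 in male +/Kl kidneys, with no overlap. It was 1.94, 1.98, 2.23 and 4.10 in female Kl/Kl kidneys, against 3.50 to 4.73 in female +/+ kidneys, where Kl/Kl replicate 4 lay within the control range. Both carriers need a partner, collectrin, made from Cltrn, to reach the membrane. Cltrn had 11.6 to 26.2 TPM in male Kl/Kl kidneys, against 25.9 to 38.4 TPM in male +/Kl kidneys, a log2 change of -0.67 ± 0.27 (SE; limma adjusted p = 0.147) and -0.79 ± 0.30 without control replicate 3 (adjusted p = 0.116). It had 0.142 to 30.4 TPM in female Kl/Kl kidneys, against 21.8 to 35.3 TPM in female +/+ kidneys, a log2 change of -1.38 ± 0.99 (adjusted p = 0.745) and -0.27 ± 0.19 without Kl/Kl replicate 3 (adjusted p = 0.463).

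**Figure D2:**
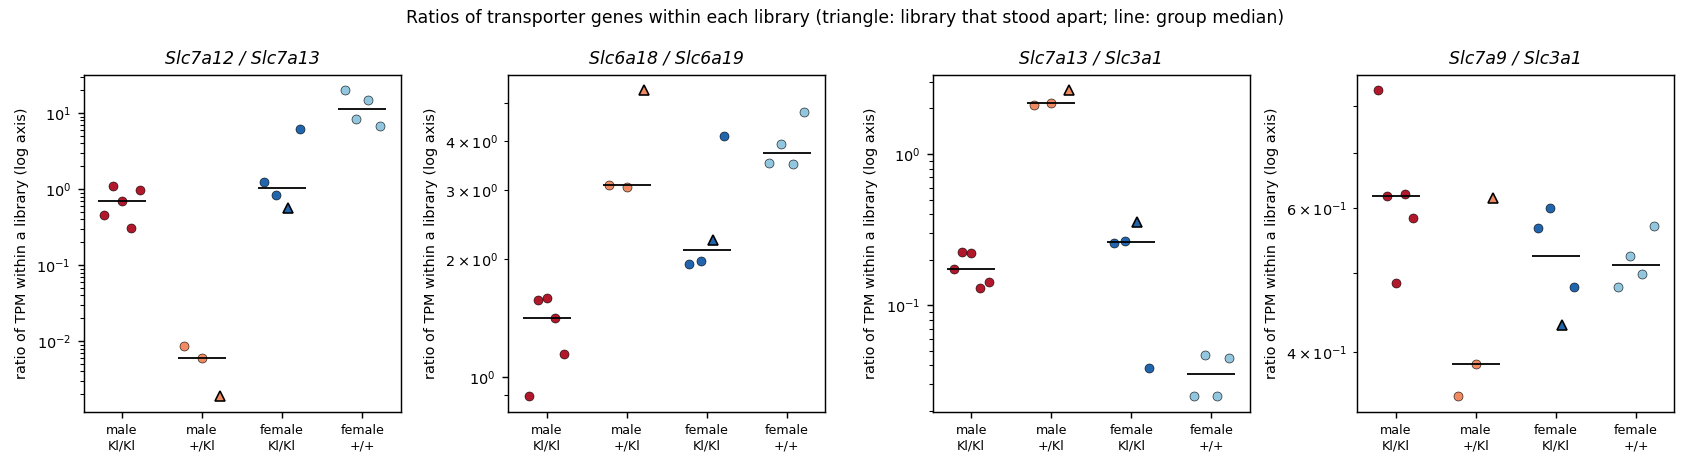
Ratio of TPM values within each library (log axis) for Slc7a12 over Slc7a13, Slc6a18 over Slc6a19, Slc7a13 over Slc3a1 and Slc7a9 over Slc3a1, by group; points are libraries, triangles the libraries that stood apart, lines group medians. The Slc7a13 over Slc3a1 ratio lies at 0.129 to 0.224 in male Kl/Kl kidneys and at 2.10 to 2.65 in male +/Kl kidneys.

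The transcripts of the rBAT heavy subunit and of its cystine-carrying partner did not pass the test in either sex. Slc3a1, at chr17:85335804-85371665 on the plus strand, had 11.7, 15.6, 15.6, 10.8 and 18.9 TPM in male Kl/Kl kidneys, against 20.1, 17.7 and 6.23 TPM in male +/Kl kidneys. The Kl/Kl values lay between control replicate 3 and control replicate 1. Its log2 change was 0.10 ± 0.34 (SE; limma adjusted p = 0.859) with all libraries and -0.38 ± 0.21 without control replicate 3 (adjusted p = 0.245), so its direction turned on that library. In females Slc3a1 had 18.9, 16.2, 0.0608 and 20.7 TPM in Kl/Kl kidneys, against 23.4, 21.0, 23.4 and 19.1 TPM in +/+ kidneys, a log2 change of -1.26 ± 0.94 (adjusted p = 0.745) and -0.21 ± 0.11 without replicate 3 (adjusted p = 0.323).

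Slc7a9, the light subunit of the cystine carrier, lies at chr7:35148221-35165462 on the plus strand. It had 9.80, 9.67, 7.60, 6.72 and 11.0 TPM in male Kl/Kl kidneys, against 7.08, 6.86 and 3.84 TPM in male +/Kl kidneys. Kl/Kl replicate 4 lay within the control range and the other 4 above it. The change was 0.54 ± 0.23 on the log2 scale (SE; by limma, adjusted p = 0.158) and 0.30 ± 0.18 without control replicate 3 (adjusted p = 0.277). Its female values were 10.7, 9.75, 0.0263 and 9.95 TPM in Kl/Kl kidneys, against 11.2, 11.0, 11.6 and 10.9 TPM in +/+ kidneys. Every female Kl/Kl value lay below every control, by a log2 change of -0.13 ± 0.063 without replicate 3 (adjusted p = 0.312) and -0.99 ± 0.77 with it (adjusted p = 0.745).

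The ratio of Slc7a13 to the rBAT transcript was 0.129 to 0.224 in male Kl/Kl kidneys, against 2.10 to 2.65 in male +/Kl kidneys. Control replicate 3, whose levels of both genes were the lowest of the controls, had the highest ratio. It was 0.0386 to 0.357 in female Kl/Kl kidneys, against 0.0250 to 0.0470 in female +/+ kidneys. The ratio of Slc7a9 to Slc3a1 was 0.486 to 0.837 in male Kl/Kl kidneys, against 0.353 to 0.617 in male +/Kl kidneys, and overlapped between the groups through control replicate 3.

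On the blood side, Slc3a2 was the member whose Kl/Kl libraries all lay above their male controls. Slc3a2, at chr19:8684246-8700734 on the minus strand, had 15.1, 13.8, 13.0, 11.4 and 12.6 TPM in male Kl/Kl kidneys, against 10.4, 9.92 and 3.89 TPM in male +/Kl kidneys. Its log2 change was 0.74 ± 0.27 (SE; limma adjusted p = 0.119) and 0.34 ± 0.13 without control replicate 3 (adjusted p = 0.110). Slc3a2 in females had 15.0, 14.4, 0.954 and 13.2 TPM in Kl/Kl kidneys, against 17.2, 13.1, 15.2 and 14.7 TPM in +/+ kidneys, overlapping apart from replicate 3, with a log2 change of -0.81 ± 0.66 (adjusted p = 0.745) and -0.075 ± 0.095 without it (adjusted p = 0.695).

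Slc7a7 encodes y(+)LAT1, which lets basic amino acids out to the blood, and lies at chr14:54606899-54655238 on the minus strand. It had 5.18, 6.15, 4.70, 2.45 and 6.74 TPM in male Kl/Kl kidneys, against 4.69, 3.68 and 1.07 TPM in male +/Kl kidneys. Only Kl/Kl replicate 4 lay below the highest control. This made a log2 change of 0.61 ± 0.34 (SE; limma adjusted p = 0.267) and 0.18 ± 0.29 without control replicate 3 (adjusted p = 0.703). Slc7a7 in females had 6.68, 5.52, 0.158 and 5.22 TPM in Kl/Kl kidneys, against 7.39, 5.40, 6.87 and 5.62 TPM in +/+ kidneys, with a log2 change of -0.10 ± 0.12 without replicate 3 (adjusted p = 0.667) and -0.74 ± 0.58 with it (adjusted p = 0.745).

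Slc7a8 encodes LAT2, an exchanger of neutral amino acids, at chr14:54959666-55019404 on the minus strand. It had 1.39, 1.67, 1.66, 1.69 and 2.21 TPM in male Kl/Kl kidneys, against 1.77, 1.81 and 0.556 TPM in male +/Kl kidneys. The groups overlapped, and the log2 change was 0.24 ± 0.20 (SE; limma adjusted p = 0.451) with all libraries and -0.043 ± 0.12 without control replicate 3 (adjusted p = 0.820). In females it had 2.59, 2.08, 0.0256 and 1.98 TPM in Kl/Kl kidneys, against 3.24, 2.39, 2.74 and 3.08 TPM in +/+ kidneys, with a log2 change of -0.67 ± 0.38 (adjusted p = 0.745) and -0.26 ± 0.098 without replicate 3 (unadjusted p = 0.0275, adjusted p = 0.219).

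Slc1a1 encodes EAAC1, the urine-side carrier of glutamate and aspartate, at chr19:28812449-28891361 on the plus strand. It had 1.96, 2.98, 2.44, 2.57 and 3.28 TPM in male Kl/Kl kidneys, against 3.83, 3.76 and 1.502 TPM in male +/Kl kidneys. All Kl/Kl values lay below control replicates 1 and 2 and above control replicate 3. The fitted log2 change was -0.094 ± 0.23 (SE; limma adjusted p = 0.807) and -0.41 ± 0.14 without control replicate 3 (unadjusted p = 0.0218, adjusted p = 0.0985). In females it had 3.99, 3.23, 0.0571 and 2.96 TPM in Kl/Kl kidneys, against 3.90, 3.39, 3.45 and 3.11 TPM in +/+ kidneys, with a log2 change of -0.027 ± 0.095 without replicate 3 (adjusted p = 0.902) and -0.54 ± 0.47 with it (adjusted p = 0.745).

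**Figure D3:**
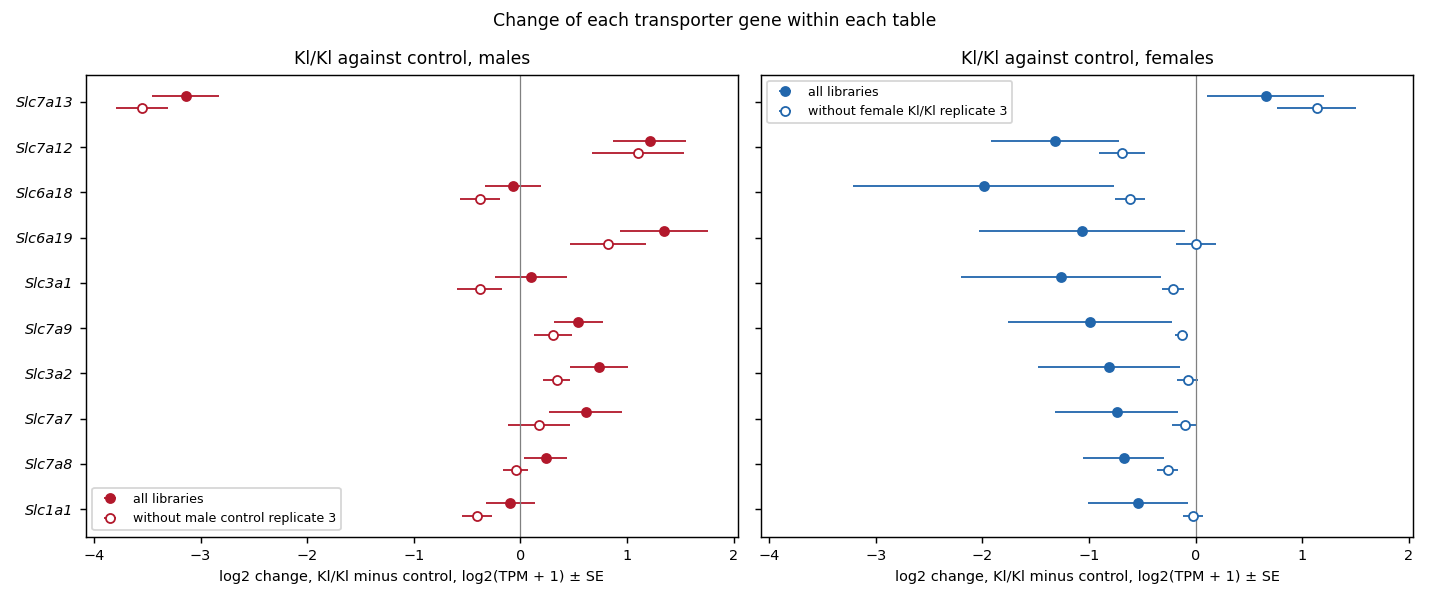
Log2 change of each transporter gene, Kl/Kl minus control, on the log2(TPM + 1) scale with its standard error, in males (left) and females (right); filled points use all libraries and open points leave out the library that stood apart. The male change of Slc7a13 is -3.14 with all libraries and -3.55 without control replicate 3, and in females the open points of 9 genes lie nearer to 0 than the filled ones.

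Over the 10 genes, 1 was called lower and none higher in males, where 5.92% of all genes were called in either direction and 10.5% without control replicate 3, and 5 of the 10 had an unadjusted p under 0.05, as did 26.9% of all genes. Their median log2 change in males was 0.39, against 0.19 for all genes, and 0.067 against 0.010 without control replicate 3. In females limma called none of the 10, with all libraries or without replicate 3, where 0.0349% and 0.103% of all genes were called; none and 4 of the 10 had an unadjusted p under 0.05, as did 4.82% and 18.4% of all genes, and limma-voom on estimated reads also called none. The female median was -0.90, against -0.16 for all genes, and -0.12 against 0.059 without replicate 3. Kl/Kl libraries lay wholly above the male controls for 3 members and wholly below for 1, against 19.1% and 4.4% of all genes; without control replicate 3 they lay above for the same 3 and below for 2, Slc7a13 and Slc1a1, against 20.2% and 22.7%. In females they lay wholly above for none and wholly below for 2, Slc6a18 and Slc7a9, against 4.79% and 3.54% of all genes, and the same 2 lay below without replicate 3, against 12.2% and 3.9%.

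Lists of genes of tubule segments and other cells were read beside these genes, and no association with them was tested. In males the convoluted segment list had a median log2 change of 0.031, with 1 of 5 genes higher. The collecting duct list had 0.51, with 2 of 6 higher. Without control replicate 3 these medians were -0.37 and 0.31, with the same counts higher. Of all genes 3.74% were called higher and 2.18% lower, and without that library 3.16% and 7.36%. The list for the straight segment, where Slc7a13 is known to be expressed, summed to 5.53 to 13.5 TPM in male Kl/Kl kidneys, against 22.4 to 54.5 TPM in male +/Kl kidneys. 2 of its 4 genes fell, Slc22a7, an organic anion carrier, by 3.81 (limma adjusted p = 3.18e-06) and Atp11a, a lipid flippase, by 2.12 on the log2 scale (adjusted p = 0.00385), and the list's median was -1.22, against 0.19 for all genes. Without control replicate 3, 3 of the 4 fell and the median was -1.66, with Slc22a7 at -4.08 (adjusted p = 3.95e-06) and Atp11a at -2.57 (adjusted p = 0.000761). Slc22a7, at 0.081 to 0.398 TPM in male Kl/Kl kidneys, met the filter of a mean of 1 TPM only through the controls. Slc5a1, the glucose carrier SGLT1, had 0.805 to 1.26 TPM in male Kl/Kl kidneys, against 0.519 to 1.99 TPM in male +/Kl kidneys, and passed the test only without control replicate 3 (adjusted p = 0.0284). Slc5a10 had 1.87 to 9.86 TPM in male Kl/Kl kidneys, against 2.29 to 8.76 TPM in male +/Kl kidneys, and was not called in either fit. In females the straight segment list summed to 0.242 to 15.4 TPM in Kl/Kl kidneys, or 8.03 to 15.4 TPM without Kl/Kl replicate 3, against 20.03 to 33.5 TPM in +/+ kidneys. There 0 of its 4 genes were called in either fit. The list's female median log2 change was -1.03, and -0.46 without Kl/Kl replicate 3. The proximal tubule list of 17 genes had a median log2 change of -0.22 in males, with 2 lower and 0 higher, and of -0.50 without control replicate 3, again with 2 lower and 0 higher. Its summed level was 1184 to 2072 TPM in male Kl/Kl kidneys, against 1023 to 2061 TPM in male +/Kl kidneys, or 1754 to 2061 TPM without control replicate 3. Much of this sum was Pck1, with 483 to 1530 TPM in male Kl/Kl and 317 to 898 TPM in male +/Kl kidneys. Relative to the mean of control replicates 1 and 2, the median gene of the list was at 0.57 to 0.90 in male Kl/Kl kidneys. It was at 1.02 and 0.98 in those 2 controls and at 0.46 in control replicate 3. The part of these values in the change of Slc7a13 was not tested.

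Of 11 genes known to differ between the sexes in mouse kidney, 7 were tested in males, where 6 fell and 1, Cyp4a14, rose. Without control replicate 3, 8 were tested, of which 6 fell and 2 rose. Cyp4a14, with a male control mean of 0.198 TPM, met the filter of a mean of 1 TPM only through the Kl/Kl libraries. So did Prlr, the gene added without control replicate 3, with a control mean of 0.0705 TPM. Some of those that fell met it only through the controls. For these genes, being tested depended on the group where each was high. In males 2.18% of all genes were called lower and 3.74% higher, and without control replicate 3 7.36% and 3.16%. Kap, a proximal tubule gene, had 76.2 to 369 TPM in male Kl/Kl kidneys, against 3450 to 4080 TPM in male +/Kl kidneys. Kap was also lower in female Kl/Kl kidneys, at 5.08 to 271 TPM, or 115 to 271 TPM without Kl/Kl replicate 3. Female +/+ kidneys had 356 to 738 TPM. In females 5 genes of the list were tested, or 4 without Kl/Kl replicate 3, and 0 were called in either fit. The 10 macrophage genes summed to 16.7 to 27.7 TPM in male Kl/Kl kidneys, against 7.36 to 13.1 TPM in male +/Kl kidneys, or 10.45 to 13.1 TPM without control replicate 3. Of the 6 tested, Cd14, Lyz2 and Cd68 rose, and without control replicate 3 Cd14 and Lyz2 did (Cd68 adjusted p = 0.0674). Cd68, with a male control mean of 0.841 TPM, met the filter only through the Kl/Kl libraries. Csf1r, the receptor of a macrophage growth factor, went the other way, with 0.879 to 1.87 TPM in male Kl/Kl kidneys, against 1.91 to 3.18 TPM in male +/Kl kidneys, and was not called (adjusted p = 0.0826, and 0.0503 without control replicate 3); these 4 were named after their values were seen. In females the list summed to 14.3 to 502 TPM in Kl/Kl kidneys, or to 14.3 to 44.4 TPM without replicate 3, against 11.9 to 19.8 TPM in +/+ kidneys. Adgre1, which encodes the macrophage antigen F4/80, had 0.0166, 0.0291, 0.0144, 0.0157 and 0.0379 TPM in male Kl/Kl kidneys, against 0.0264, 0.0258 and 0.0067 TPM in male +/Kl kidneys, and the groups overlapped. The 6 adrenal cortex genes summed to 10.6, 71.2, 0.974, 1.49 and 0.970 TPM in male Kl/Kl kidneys, against 0.427 to 0.459 TPM in male +/Kl kidneys. The high sums were those of Kl/Kl replicates 1 and 2. The part of these lists in the transporter values was not tested.

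The library name prefix, FdK or DK, was present in every group. Within FdK libraries Slc7a13 averaged 2.04 TPM in 3 male Kl/Kl libraries and 40.2 TPM in 2 male +/Kl libraries, a log2 difference of -3.78. Within DK libraries it averaged 3.47 TPM in 2 male Kl/Kl libraries and had 16.5 TPM in the 1 male +/Kl library, control replicate 3, a log2 difference of -1.97.

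35 other amino acid transporter genes were measured and 12 of them passed the filter on low values. In males 2 of the 12 rose and none fell with all libraries, where 3.74% of all genes were called higher and 2.18% lower. Slc6a6, the taurine carrier, had 10.3 to 16.4 TPM in male Kl/Kl kidneys, against 2.37 to 5.84 TPM in male +/Kl kidneys, with a log2 change of 1.29 ± 0.26 (SE; limma adjusted p = 0.0189). Slc43a3, a carrier of purine nucleobases in the family of the branched-chain amino acid carriers, had 1.91 to 3.54 TPM in male Kl/Kl kidneys, against 0.713 to 1.15 TPM in male +/Kl kidneys, with a log2 change of 0.85 ± 0.17 (adjusted p = 0.0164). With a male control mean of 0.927 TPM over all libraries, Slc43a3 met the filter of a mean of 1 TPM only through the Kl/Kl libraries. Both were still called without control replicate 3, and 2 further genes then fell: Slc6a20b, an imino acid carrier whose paralog Slc6a20a could share reads with it, by 1.33 (adjusted p = 0.0118), and Slc36a1, a proton-coupled carrier of small amino acids, by 0.77 (adjusted p = 0.0445). Of all genes 3.16% were then called higher and 7.36% lower. With all libraries Slc6a20b and Slc36a1 had adjusted p-values of 0.0879 and 0.0694. In females none of the 12 was called with or without replicate 3. The median change of the 12 in males was 0.30 with all libraries and 0.028 without control replicate 3.

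All 7 partner genes listed, such as brush-border peptidases and scaffolds, were measured, and in males 1 fell and 0 rose, or 3 fell and 0 rose without control replicate 3. The share of all genes called lower in males was 2.18%, and 7.36% without that library. Ggt1, the enzyme gamma-glutamyl transferase, which releases amino acids from glutathione at the brush border, had 14.4 to 20.6 TPM in male Kl/Kl kidneys, against 27.6 to 52.8 TPM in male +/Kl kidneys. Its log2 change was -1.20 ± 0.25 (SE; limma adjusted p = 0.0199) and -1.49 ± 0.17 without control replicate 3 (adjusted p = 0.00187), so it fell. In females it had 0.0403 to 23.1 TPM in Kl/Kl kidneys, against 23.2 to 28.7 TPM in +/+ kidneys, and was not called with replicate 3 (adjusted p = 0.745) or without it (log2 change -0.21 ± 0.091, adjusted p = 0.264). Without both libraries that stood apart, the male change of Ggt1 was lower than the female change by -1.27 ± 0.19 (adjusted p = 0.00217); with all libraries the difference was 0.13 ± 1.07 (adjusted p = 0.947). Without control replicate 3, Anpep, the brush-border aminopeptidase N, fell by 0.74 (adjusted p = 0.0188) and the scaffold gene Slc9a3r1 by 0.60 (adjusted p = 0.0381) in males; with all libraries their adjusted p-values were 0.338 and 0.176.

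**Figure D4:**
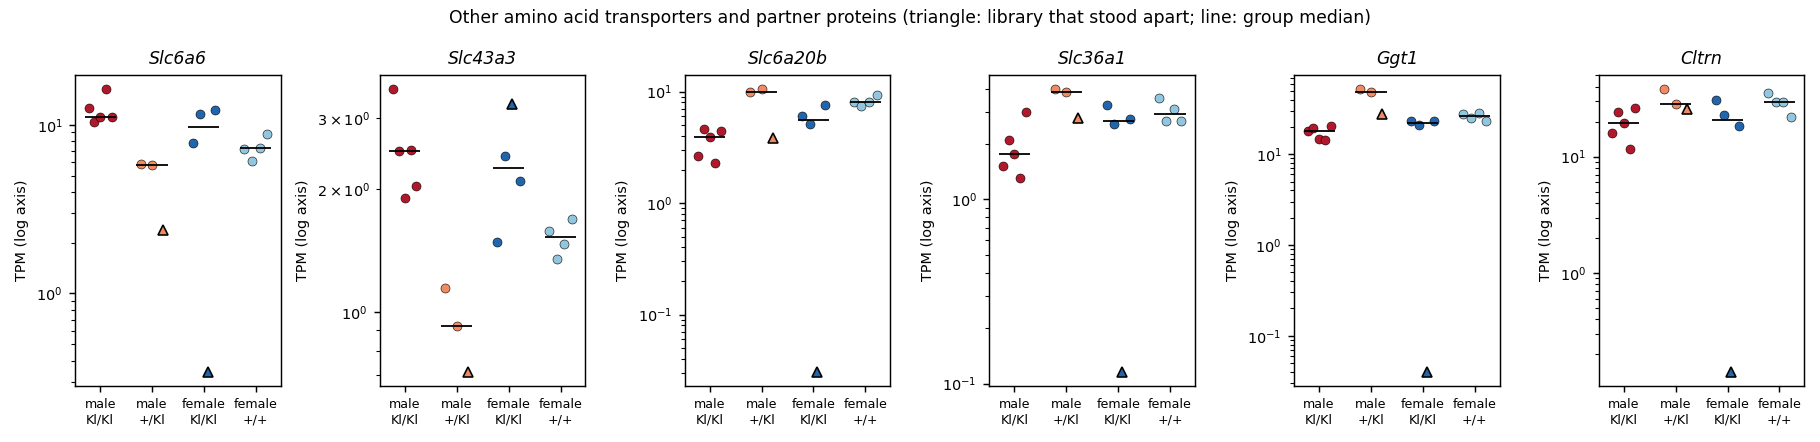
TPM (log axis) of Slc6a6, Slc43a3, Slc6a20b, Slc36a1, Ggt1 and Cltrn by group; points are libraries, triangles the libraries that stood apart, lines group medians. Slc6a6 lies at 10.3 to 16.4 TPM in male Kl/Kl kidneys and at 2.37 to 5.84 TPM in male +/Kl kidneys, and Ggt1 lies at 14.4 to 20.6 TPM and 27.6 to 52.8 TPM in the same groups.

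The genes most like 3 of the members were ranked over 2634 genes by the lower of 2 Pearson correlations of log2(TPM + 1), over 7 male and over 7 female libraries, leaving out the libraries that stood apart. The points share the genotype difference, the table and the library preparation, so these are descriptions. For Slc7a13 they included Tmigd1 (0.925), Arpp19 (0.895), Inmt (0.883) and Mrpl38 (0.812). For Slc7a12 they were Etnk1 (0.872), Hao2 (0.766), Apmap (0.761), Plet1 (0.742) and Enpp5 (0.731). For Slc6a18 they included Napsa (0.877), Irx3 (0.871), Pcyt2 (0.870) and Ganab (0.869).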

How the data were processed

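The 2 deposited tables give TPM per gene and library, as the authors made them; per the submitters' processing notes, Partek and the mm39 build were used, and per the file headers the annotation is Ensembl's. Aligner, counter and strand setting: not given in the sources used here. Per the labels' protocols, RNA was isolated with the miRNeasy Mini Kit and libraries were made with the New England Biolabs Ultra Directional kit. From the values themselves, TPM was scaled by each gene's whole span, introns included, so levels of different genes were not compared. Columns sum to 285327 in the male table and 265288 in the female table. No value is 0, and in each library the lowest value, times the gene's span, was taken to be 0.0001 of a read. The size of 1 read set in this way gave whole reads, within 0.05, for 61.7% to 63.9% of low genes. Counts were therefore not recovered, and depths of 21.7 to 31.9 M reads are estimates. No column was left unused.

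Within each table, log2(TPM + 1) was fitted, for genes averaging 1 TPM or more, with limma 3.58.1 in R 4.3.3 (lmFit, eBayes with trend), with Benjamini-Hochberg adjustment over all genes tested and a threshold of 0.05. The male and female changes were compared in a model of 4 group means. A fold change on this scale understates that of low genes. The level of Kl was compared by an exact permutation of the libraries, two-sided (SciPy 1.17.1). The fits were tested on simulated data. Alternatives changed the pseudocount, the filter, the scaling, array weights, covariates and the libraries left out. Promoter sequences are RefSeq's on GRCm38.p6. The members, lists and tests were chosen with earlier results of these data known. All 10 members are named; of the other transporters, those called in a comparison, up to 6 per direction; of the segment and cell lists, up to 3 genes; and the 5 genes most like Slc7a13, Slc7a12 and Slc6a18, among genes averaging 5 TPM or more in some group, of which some are not reported here. All 10 members passed the filter in each of these fits. Slc7a12 in males and Slc7a13 in females passed it only through the Kl/Kl libraries. Slc7a12 averaged 2.05 TPM in male Kl/Kl and 0.207 TPM in male +/Kl kidneys. Slc7a13 averaged 2.51 TPM in female Kl/Kl and 0.754 TPM in female +/+ kidneys.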

Additional observations from a re-analysis of the deposited data

Results flagged for a closer look

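30 groups of 4 or 5 libraries were searched for a library far from the others, and chance alone gives about 1 such group in 20. 2 were found, both in female Kl/Kl replicate 3: Slc7a9 at 0.0263 TPM, against 9.75 to 10.7 TPM in the other 3 female Kl/Kl libraries, and Slc3a2 at 0.954 TPM, against 13.2 to 15.0 TPM. In the same library the 7 heart muscle genes summed to 1864 TPM and the 17 proximal tubule genes to 94.4 TPM.

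The change of Slc7a13 differed between the sexes by -3.80 on the log2 scale (limma, male change minus female change, adjusted p = 0.0247). Slc7a13 was lower in 5 of 5 male Kl/Kl libraries than in any male +/Kl library, and in females 2 of 4 Kl/Kl libraries lay above every +/+ library. Sex, table and control genotype go together here and cannot be told apart.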

How the results depend on the processing

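The fall of Slc7a13 in males was called in 20 of 20 alternative fits, with adjusted p-values up to 0.0101; its difference between the sexes was called in 13 of 28. In males 500 genes were called, against 322 with a minimum of 5 TPM, 1182 with median-of-ratios scaling, 2829 with array weights, 1249 with the library name prefix as a term, 1502 with limma-voom, and 831 with each library scaled to the proximal tubule list, an alternative chosen after seeing the data; leaving out 1 library gave 185 (control replicate 2) to 909 (control replicate 3), with 237 to 314 without Kl/Kl replicates 1 to 4 or control replicate 1. Of the 10 transporters 1 was called, against 2 with a pseudocount of 0.1 or 0.01, 2 with median-of-ratios scaling, 6 with array weights, 3 with the prefix, 2 with age as a term, 4 with limma-voom, 4 scaled to the proximal tubule list, and 1 to 2 with 1 library left out. Median-of-ratios scaling moved the median male change of all genes to 0.015, against 0.19.

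In females 3 genes were called, against 0 with a pseudocount of 0.01, 8 without a filter, 327 with array weights, 0 with limma-voom, 0 scaled to the proximal tubule list, 7 in the model of 4 group means, and 2 to 9 with 1 library left out (9 without Kl/Kl replicate 3, 5 without Kl/Kl replicate 4); 0 of the 10 transporters were called in each of these. For the difference between the sexes 18 genes were called, against 10 and 7 with pseudocounts of 0.1 and 0.01, 117 without a filter, 3 at 5 TPM, 31 with median-of-ratios scaling, 1036 with array weights (a fit that did not converge to tolerance), 31 with age, 8 with limma-voom, 3 scaled to the proximal tubule list, 338 without both libraries that stood apart, and 9 to 75 with 1 library left out (9 and 10 without male control replicates 1 and 2, 75 without female Kl/Kl replicate 3). The call of Slc7a13 was then 1 transporter of 10, against 0 with pseudocounts of 0.1 and 0.01, at 5 TPM and with limma-voom, 3 with array weights, and 0 to 1 with 1 library left out. The causes were not tested.

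The replicate numbers did not pair the libraries: same-numbered Kl/Kl and control libraries correlated at -0.177 to 0.041 in males and -0.116 to 0.290 in females. With the replicate block, 227 genes and 2 transporters were called in males, 0 genes in females, and 9 genes and 0 transporters for the difference.

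Changes of sign were confined to transporters not called with all libraries. In males Slc6a18 became 0.074 and Slc1a1 0.052 scaled to the proximal tubule list, Slc7a8 -0.016 with array weights, and Slc3a1 -0.13 with median-of-ratios scaling and -0.24 with array weights; with 1 library left out Slc6a18 ran from -0.38 to 0.13, Slc7a8 from -0.043 to 0.38, Slc3a1 from -0.38 to 0.39 and Slc1a1 from -0.41 to 0.068. In females scaling to the proximal tubule list gave Slc6a19 0.26, Slc7a7 0.58, Slc7a8 0.65, Slc7a9 0.33, Slc3a1 0.058, Slc3a2 0.51, Slc1a1 0.78 and Slc7a12 0.0014; Slc6a19 was 0.0073 with array weights and ran from -1.53 to 0.0069 with 1 library left out. For the difference, Slc7a8 was -0.27 and Slc1a1 -0.73 scaled to that list, Slc3a1 -0.028 and Slc1a1 -0.32 with array weights, Slc3a1 -0.17 and Slc1a1 -0.38 without both libraries, and Slc1a1 -0.066 without female Kl/Kl replicate 3, within a range of -0.066 to 0.68 over single libraries left out. Kl ran from 0.721% to 1.44% of control in males (exact permutation p = 0.0571 to 0.0952) and from 0.934% to 1.98% in females (exact permutation p = 0.0571) with 1 library left out, the smallest p these sizes allow.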
